A study of Mustela putorius furo with 20 samples.

Results

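The genes described here are *EOMES* and the proneural basic helix-loop-helix (bHLH) genes that are expressed in sequence as a cortical progenitor becomes a glutamatergic neuron. The list holds 7 genes, chosen by name, of the 32,057 genes in the count table. *EOMES*, *NEUROG2*, *NEUROD1*, *NEUROD2* and *NEUROD6* were found under 1 identifier each, while *BHLHE22* and *HES6* were not analysed here. All 5 passed the filter on low counts among 12,669 tested genes. However, *NEUROG2*, *NEUROD1* and *NEUROD2* passed through their P5 reads and would not have passed it in the P15 libraries alone. The list was drawn up when the P15 difference of *EOMES* between regions and the age difference of *NEUROD6* were already known. Values for age and for region at P15 are therefore given as a description, and only the region difference at P5 is reported as a test.

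In the developing cortex, radial glia express *NEUROG2*, a proneural bHLH factor that commits daughter cells to the neuronal lineage. *EOMES* (also called TBR2) is a T-box transcription factor that marks intermediate progenitors, the transit-amplifying cells that divide in the subventricular zone to give neurons. *NEUROD1* follows in late progenitors and newborn neurons, and *NEUROD2* and *NEUROD6* are maintained in postmitotic projection neurons. These bHLH factors bind DNA as dimers with the broadly expressed E-proteins, and Id proteins and HES and HEY repressors oppose them.

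RNA came from the outer subventricular zone (oSVZ), the enlarged germinal layer of folded cortices, captured by laser from Nissl-stained sections below the coronal gyrus (CG) and below the suprasylvian sulcus (SSS) of ferret kits. The kits carried no allele and no treatment named in the labels, and strain is not part of the design. The authors used kits of both sexes, in uneven numbers at each age, and left sex out of their model. It is not part of the fits here either. There were 5 kits at P5 (5 days old), at the onset of cortical folding, and 5 at P15 (15 days old), in the middle of it, and each gave 1 CG and 1 SSS library, so that 20 libraries form 4 groups of 5. Each library pooled sections of 1 region at a single rostrocaudal level, and its RNA was amplified before sequencing.

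Reads assigned to genes ran from 2,785,162 to 4,277,326 per library at P5 and from 2,488,477 to 4,095,208 at P15. The P15 SSS library of animal 4 had no read for 1371 of the tested genes, against 49 to 825 in the other libraries. It was kept. The P15 region difference of *EOMES* and the number of members called between regions at P15 are also given without it, while the levels and other fold changes include it. Levels are read counts relative to the size of the library (CPM) scaled by TMM, a normalisation that corrects for differences in library composition. They are not divided by gene length, so levels of different genes were not compared. As the tissue was measured in bulk, fewer cells of a type and less RNA per cell cannot be told apart.

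*EOMES* was highest at P5 and lowest in the P15 SSS, with the P15 CG between them. In the P5 CG it measured 67.8, 54.5, 112, 90.6 and 86.1 CPM in animals 1 to 5 (mean ± SD 82.1 ± 21.96, n = 5). In the P5 SSS of the same animals it measured 113, 38.3, 69.6, 18.2 and 49.6 CPM (57.7 ± 36.1). These ranges overlapped, and the SSS libraries were the more scattered of the 2 groups. In the P15 CG it measured 14.6, 16.7, 14.3, 13.0 and 23.0 CPM (16.3 ± 3.98). In the P15 SSS it measured 2.31, 1.99, 2.73, 1.36 and 9.80 CPM (3.64 ± 3.48), which came from 56 reads in 5 libraries. Every P15 CG library lay above every P15 SSS library, and within each region every P15 library lay below every P5 library. Only the P5 SSS library of animal 4, at 18.2 CPM, reached the range of the P15 CG.

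*NEUROG2*, the most upstream of the bHLH genes on the list, was a gene of few reads at each age. The P5 CG libraries had 7.34, 6.93, 4.77, 16.3 and 12.4 CPM in animals 1 to 5 (9.55 ± 4.70), and the P5 SSS libraries had 19.1, 12.1, 10.5, 18.9 and 4.23 CPM (13.0 ± 6.23). The regions overlapped, with the SSS above the CG in 4 of 5 animals. At P15 the CG libraries held 0, 5, 11, 3 and 6 reads (1.51 ± 1.00 CPM) and the SSS libraries held 2, 0, 0, 0 and 6 reads (0.521 ± 0.879 CPM). A library with 0 reads allows a level of up to 0.861 to 1.21 CPM before TMM scaling, the value of 3 reads at the depth of these 4 libraries. After scaling, 3 reads in the P15 SSS library of animal 4 came to 1.36 CPM. At the depth of these libraries a difference between the P15 regions could not be resolved, although all P15 libraries lay below all P5 libraries of their region.

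*NEUROD1*, which acts as newborn neurons leave the cell cycle, overlapped between the regions at P5 and was down to a few reads at P15. In the P5 CG it measured 6.99, 13.6, 22.4, 37.0 and 9.21 CPM in animals 1 to 5 (17.8 ± 12.2), and in the P5 SSS 9.36, 19.0, 15.5, 22.9 and 19.3 CPM (17.2 ± 5.11). At P15 the CG libraries held 6, 7, 1, 0 and 0 reads (0.903 ± 1.14 CPM) and the SSS libraries 4, 14, 3, 5 and 10 reads (2.46 ± 1.59 CPM). The libraries with 0 reads allow up to 1.15 and 1.09 CPM before TMM scaling. The P15 ranges overlapped between regions, with the SSS higher in 4 of 5 animals, and all P15 libraries lay below all P5 libraries of their region.

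*NEUROD2*, a bHLH factor of differentiating projection neurons, was the most uneven of the 5 genes in the P5 SSS. It measured 10.5, 19.0, 14.0, 5.25 and 10.5 CPM in the P5 CG (11.8 ± 5.07) and 1.44, 42.1, 22.9, 1.45 and 24.5 CPM in the P5 SSS (18.5 ± 17.3). The P5 SSS libraries thus fell apart into animals 1 and 4, with 4 reads each, and animals 2, 3 and 5, with 81 to 122 reads. Animals 1 and 4 were also the P5 SSS libraries with the most tested genes at 0 reads, 659 and 825 against 244 to 503 in the other 3. Among the P5 SSS samples, the authors also reported the lowest RNA integrity for these animals. The same libraries held the highest (animal 1) and the lowest (animal 4) *EOMES* level of that group. The part of missing genes and RNA quality in these values was not tested. At P15 *NEUROD2* measured 6.28, 0.656, 0.234, 2.30 and 0.365 CPM in the CG (1.97 ± 2.55) and 2.599, 2.33, 1.91, 0.454 and 3.72 CPM in the SSS (2.20 ± 1.18). Unlike the other 4 genes, its P5 and P15 ranges overlapped in each region.

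*NEUROD6*, a bHLH factor kept on in maturing projection neurons, was the best measured gene of the list and had the smallest SD relative to its mean in 3 of 4 groups. The P5 CG libraries had 448, 343, 594, 541 and 591 CPM (503 ± 107.6) and the P5 SSS libraries had 464, 724, 565, 734 and 762 CPM (650 ± 129). At P15 the CG libraries had 30.1, 46.3, 21.03, 21.8 and 47.1 CPM (33.3 ± 12.8) and the SSS libraries 44.2, 41.9, 47.0, 35.8 and 52.0 CPM (44.2 ± 6.01). The ages were far apart with no overlap, while the regions overlapped at each age.

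**Figure D1:**
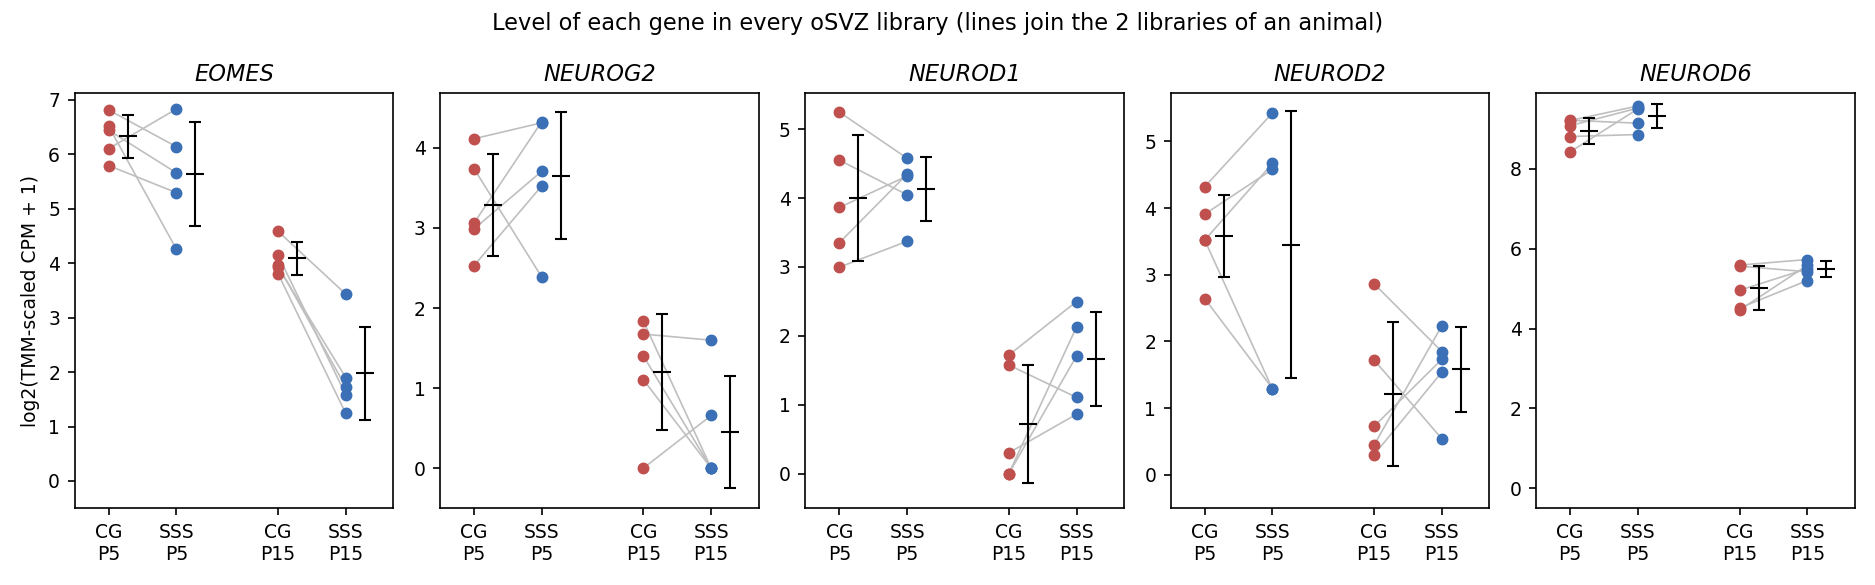
Level of each gene in the 20 oSVZ libraries, as log2 of TMM-scaled CPM plus 1 (vertical axis of each panel), for CG (red) and SSS (blue) at P5 and P15; grey lines join the libraries of an animal and black bars give mean and SD (n = 5). All 5 genes sit lower at P15, and *EOMES* is the gene whose P15 CG points all lie above the P15 SSS points.

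The order of the group means placed P5 above P15 for each of the 5 genes. *EOMES* ran from P5 CG to P5 SSS, P15 CG and P15 SSS, and *NEUROG2* from P5 SSS to P5 CG, P15 CG and P15 SSS. *NEUROD1* ran from P5 CG to P5 SSS, P15 SSS and P15 CG. *NEUROD2* and *NEUROD6* ran from P5 SSS to P5 CG, P15 SSS and P15 CG. The P5 neighbours differed by less than the larger SD of the pair for every gene but *NEUROD6*. The P15 neighbours differed by less than it for every gene but *EOMES*.

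From P5 to P15 all 5 genes had lower fitted levels in both regions (edgeR quasi-likelihood model of 4 groups, n = 5 per group). In the CG the log2 fold change was -2.33 for *EOMES* (SE 0.411, 5.03-fold lower), -2.61 for *NEUROG2* (SE 0.837, 6.12-fold lower) and -4.25 for *NEUROD1* (SE 0.777, 19.0-fold lower). It was -2.58 for *NEUROD2* (SE 0.838, 5.99-fold lower) and -3.92 for *NEUROD6* (SE 0.239, 15.2-fold lower). In the SSS it was -3.96 for *EOMES* (SE 0.462, 15.6-fold lower), -4.52 for *NEUROG2* (SE 0.940, 23.0-fold lower) and -2.80 for *NEUROD1* (SE 0.709, 6.98-fold lower). *NEUROD2* had -3.03 (SE 0.840, 8.18-fold lower) and *NEUROD6* -3.87 (SE 0.238, 14.7-fold lower). None of the 5 genes was called for a difference between these changes.

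At a false discovery rate (FDR) under 0.05 over all tested genes, 5 of 5 members were called lower at P15 in the CG, where 5.72% of tested genes were, and 5 of 5 in the SSS, where 6.46% were. All P15 libraries lay below all P5 libraries for 4 of 5 members in each region, against 5.49% of tested genes in the CG and 4.43% in the SSS. Since age differences helped to choose the list, and 3 of the 5 genes entered the test through their P5 reads, these counts are not evidence about the list. The calls of *EOMES*, *NEUROD1* and *NEUROD6* held in both regions under all 18 alternatives. In the CG the call of *NEUROG2* held in 12 of 18 and that of *NEUROD2* in 11 of 18. Both lost their CG call with a replicate block by number, which joins different animals. *NEUROG2* lost its call in the CG without P15 animals 1 or 2 (log2 fold change -2.30 and -2.64) or P5 animals 2, 4 or 5 (-2.69, -2.33 and -2.50). *NEUROD2* lost it in the CG without P15 animals 2, 3 or 5 (-2.36, -2.27 and -2.32) or P5 animals 2, 3 or 5 (-2.32, -2.52 and -2.63), and in the SSS without P5 animal 2 (-2.45) and with limma-voom (-2.26).

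**Figure D2:**
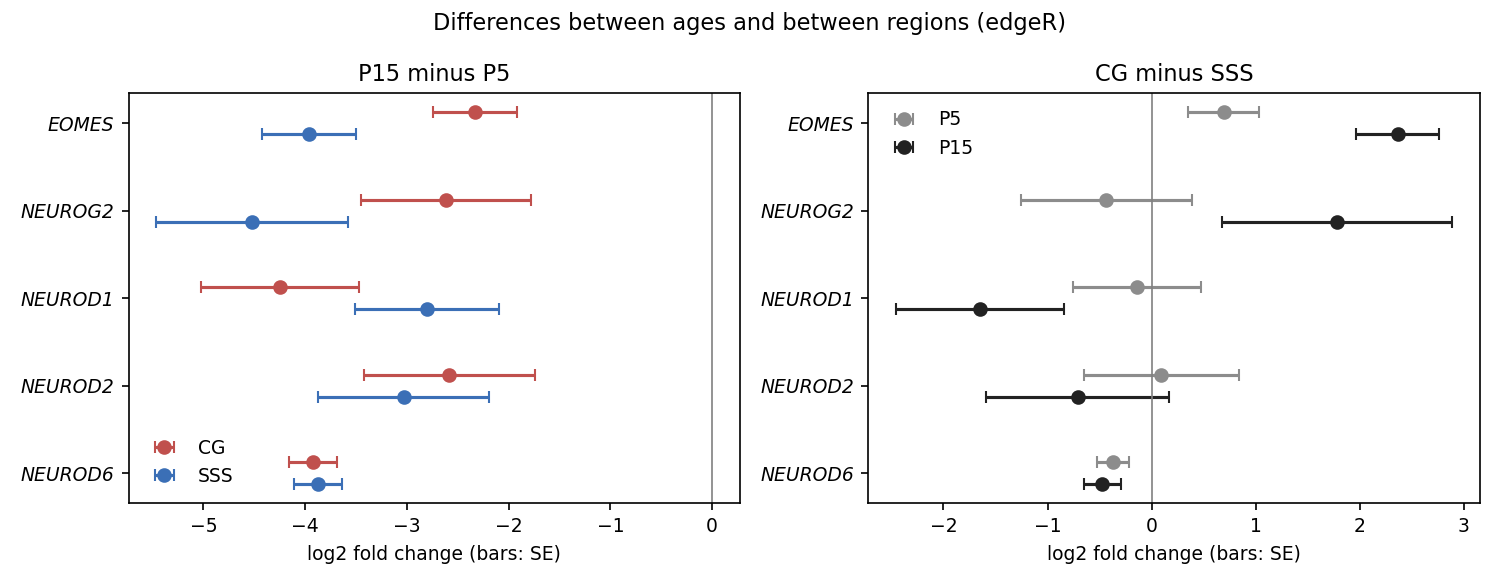
Fitted log2 fold changes (horizontal axes) with SE bars for the 5 genes, as P15 minus P5 in the CG (red) and SSS (blue) on the left and as CG minus SSS within animals at P5 (grey) and P15 (black) on the right. All age changes lie between -4.52 and -2.33, whereas the region differences at P15 run from -1.65 (*NEUROD1*) to 2.36 (*EOMES*).

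At P5, when folding begins, none of the 5 genes passed the test between CG and SSS within animals (edgeR, FDR under 0.05, a threshold that 0.0395% of tested genes passed). DESeq2 and limma-voom called none of them either, and 1 of 5, *NEUROD6*, had an unadjusted p under 0.05, as did 1017 of 12,669 tested genes. The CG level of *EOMES* exceeded the SSS level in 4 of 5 animals (log2 fold change 0.69, SE 0.340, 95% interval -0.01 to 1.39, FDR = 0.634, edgeR). That estimate was 0.32 without animal 4 and 1.05 without animal 1, the animal in which *EOMES* was higher in the SSS. For *NEUROD6* the SSS level exceeded the CG level in 4 of 5 animals (-0.37, SE 0.158, 95% interval -0.70 to -0.05, FDR = 0.542). The intervals of the genes with few reads were wide. They were -2.12 to 1.25 for *NEUROG2* (log2 fold change -0.44, FDR = 0.946), -1.41 to 1.13 for *NEUROD1* (-0.14, FDR = 0.978) and -1.45 to 1.63 for *NEUROD2* (0.09, FDR = 0.990, edgeR). Regional differences of 2-fold in either direction therefore remained within the intervals of these 3 genes.

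At P15, *EOMES* was 5.15-fold higher in the CG by the paired fit (log2 fold change 2.36, SE 0.403) and higher in 5 of 5 animals, a pattern that 3.80% of tested genes had. The ratio of CG to SSS was 6.30, 8.39, 5.22, 9.58 and 2.35 in animals 1 to 5. At P5 the same ratio was 0.5998, 1.42, 1.61, 4.99 and 1.74. The ratio at P15 was thus above 1 in all animals, and animal 5 had the smallest. The call of *EOMES* (FDR = 0.0273, edgeR) made 1 of 5 members called at P15, where 0.0158% of tested genes were. The authors, who also modelled paired samples, reported no significant difference between the regions at P15. In their fit *EOMES* was among the genes that did not pass. Every CG library lay above every SSS library for *EOMES*, as it did for 0.229% of tested genes. As this difference helped to choose *EOMES*, these shares are a description and not evidence about the gene or the list. The call held in 6 of 18 alternatives, and the fitted log2 fold change ran from 2.14 to 2.76 over them. It was lost without P15 animals 1, 2, 3 or 4 (2.28, 2.20, 2.35 and 2.21), without P5 animals 2, 3 or 5 (2.36, 2.37 and 2.37) and without only the P15 SSS library of animal 4 (2.20). It was also lost with limma-voom (2.21), with the newer quasi-likelihood of edgeR (2.16), with no animal block (2.14) and with only the P15 libraries in the fit (2.44).

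The other genes were not called between regions at P15. *NEUROG2* had a log2 fold change of 1.78 (SE 1.10, 95% interval -0.49 to 4.06), from 25 reads in the CG and 8 in the SSS. The value was -1.65 for *NEUROD1* (SE 0.806, 95% interval -3.31 to 0.01), -0.71 for *NEUROD2* (SE 0.882, -2.53 to 1.11) and -0.47 for *NEUROD6* (SE 0.177, -0.84 to -0.11). For *NEUROD6* and *NEUROD1* the SSS level was the higher one in 4 of 5 animals each. As *NEUROG2*, *NEUROD1* and *NEUROD2* would not pass the filter in the P15 libraries alone, and their 95% intervals held 0, no direction was read from them.

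The change of the region difference with age was 1.67 for *EOMES* on the log2 scale (SE 0.526, 95% interval 0.59 to 2.76). This contrast holds the P15 region difference that helped to choose *EOMES*, so its values for that gene are a description. It was 2.22 for *NEUROG2* (SE 1.37), -1.51 for *NEUROD1* (SE 1.00), -0.80 for *NEUROD2* (SE 1.16) and -0.10 for *NEUROD6* (SE 0.236). In this contrast 0% of tested genes were called by edgeR, and none of the 5 genes was called by edgeR, DESeq2 or limma-voom. Before adjustment 1 of 5, *EOMES*, had a p under 0.05, as did 488 of 12,669 tested genes, fewer than the 633 that chance would give.

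The ratio of *EOMES* to *NEUROD6* reads within a library does not depend on how libraries are scaled. In the P5 CG there were 15.1, 15.9, 18.8, 16.8 and 14.6 *EOMES* reads per 100 *NEUROD6* reads in animals 1 to 5 (16.2 ± 1.65). In the P5 SSS there were 24.4, 5.29, 12.3, 2.48 and 6.51 (10.2 ± 8.70). The CG values were close together and the SSS values spread on either side of them. In the P15 CG the ratio was 48.4, 36.2, 67.8, 59.6 and 48.8 (52.2 ± 12.1), above every other library of the study. In the P15 SSS it was 5.23, 4.76, 5.81, 3.80 and 18.8 (7.69 ± 6.27), within the range of the P5 SSS. In the CG both genes were lower at P15 than at P5, *EOMES* 5.03-fold and *NEUROD6* 15.2-fold in the fit. Against the P15 SSS, the *EOMES* level of the P15 CG was higher (means of 16.3 and 3.64 CPM in CG and SSS). *NEUROD6* had means of 33.3 and 44.2 CPM there. As the values of *EOMES* and *NEUROD6* chose these genes, no test was applied to the ratio.

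**Figure D3:**
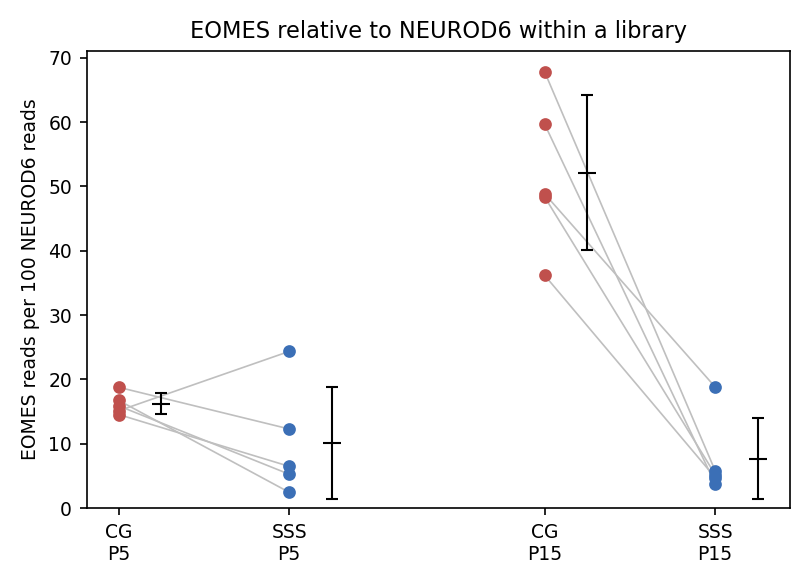
*EOMES* reads per 100 *NEUROD6* reads (vertical axis) in each library of the CG (red) and SSS (blue) at P5 and P15, with lines joining the libraries of an animal and black bars for mean and SD (n = 5). The P15 CG libraries sit between 36.2 and 67.8 and all other libraries at or below 24.4.

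Other genes of the pathway were counted in lists that were not trimmed to the measured values. The lists were nevertheless chosen with earlier results of these data known, so their counts are a description and not evidence about the lists. Among projection neuron genes, 11 of 16 tested genes fell with age in the CG and 14 of 16 in the SSS, and none rose (edgeR, FDR under 0.05), where 5.72% and 6.46% of all tested genes were called lower. *TBR1*, a T-box factor that follows *EOMES* in newborn deep-layer neurons, fell with age in the CG (log2 fold change -3.12, SE 0.282, FDR = 2.01e-09) and in the SSS (-2.69, SE 0.275, FDR = 1.77e-08). *ELAVL4*, a neuronal RNA-binding protein, fell by 1.69 and 1.82 on the log2 scale in CG and SSS (FDR = 1.89e-08 and 5.17e-09). *PRDM8*, a transcriptional repressor that partners BHLHE22, fell in the CG (log2 fold change -2.98, SE 0.977, FDR = 0.0390) and in the SSS (-4.27, SE 1.02, FDR = 0.00409). However, *PRDM8* had 86 and 156 reads at P5 in CG and SSS and only 9 and 7 at P15, so it entered the test through its P5 reads. In the region tests no projection neuron gene passed at either age, with *TBR1* at -0.92 (SE 0.213, FDR = 0.382) at P15 and *DCX*, a microtubule protein of migrating neurons, at -0.36 (SE 0.140, FDR = 0.508) at P5. The median log2 fold change of the 16 genes was -1.67 in the CG and -1.82 in the SSS, beside -0.01 and -0.01 for all tested genes.

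Genes of intermediate progenitors did not share 1 direction. Of 13 listed genes 10 were present and 7 tested. *INSM1*, a zinc-finger factor that promotes delamination and basal progenitor formation, fell in the CG (log2 fold change -3.45, SE 1.05, FDR = 0.0260) and in the SSS (-4.20, SE 1.12, FDR = 0.0100). However, *INSM1* had 76 and 63 reads at P5 in CG and SSS and only 6 and 3 at P15. It therefore entered the test through its P5 reads, and its P15 level is near 0. *RND2*, which acts downstream of *NEUROG2* in radial migration in the mouse, rose in the CG (1.99, SE 0.610, FDR = 0.0262) and had 1.56 in the SSS (SE 0.598, FDR = 0.0780). The Notch ligand *DLL3* had 0.16 and 0.07 in CG and SSS and was not called. None of the 7 passed between regions at either age, *MFNG* having 0.82 at P5 (SE 0.346, FDR = 0.541) and *DLL3* 0.30 at P15 (SE 0.314, FDR = 1.00, edgeR).

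Partners and opponents of the bHLH factors mostly did not pass the age test. None of the 3 E-proteins was called, with *TCF4* at -0.20 and *TCF12* at -0.07 in the CG, and 0.04 and 0.25 in the SSS. *TCF3* had -0.90 (SE 0.455, FDR = 0.210) and -0.65 (SE 0.456, FDR = 0.384, edgeR). Of 6 tested HES, HEY and Id genes, *HEYL* rose in the CG (2.37, SE 0.629, FDR = 0.0104) and *HEY1* in the SSS (1.83, SE 0.372, FDR = 0.000800), and none fell. Over all 12,669 tested genes 1661 were called in the CG, 725 of them lower, and 1856 in the SSS, 819 of them lower. No result about the 6 genes as a group is read from 1 call per region. *HES1*, the main Notch effector of radial glia, was not called, with 0.32 in the CG and -0.30 in the SSS. Among other neural bHLH genes 3 of 15 listed were tested and none was called. *NEUROD4* had -2.98 in the CG (SE 1.13, FDR = 0.0819) and -2.88 in the SSS (SE 1.15, FDR = 0.0918, edgeR), and *OLIG2*, the bHLH gene of the oligodendrocyte lineage, 0.78 and 1.02. *BHLHE40* had 1.40 in the CG (SE 0.758), *ID1* 0.81 in the CG (SE 0.462) and *HEYL* 1.32 in the SSS (SE 0.602), none of them called.

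No gene of these 3 lists passed between the regions at either age. The lowest p at P5 belonged to *ID3*, an inhibitor that sequesters E-proteins (log2 fold change 2.11, SE 0.863, FDR = 0.535), *OLIG2* (0.67, SE 0.574, FDR = 0.820) and *TCF12* (0.17, SE 0.109, FDR = 0.748, edgeR). At P15 it belonged to *NEUROD4* (1.97, SE 1.28), *HEY1* (-0.65, SE 0.339) and *TCF4* (-0.14, SE 0.0820), each with FDR = 1.00 in edgeR.

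**Figure D4:**
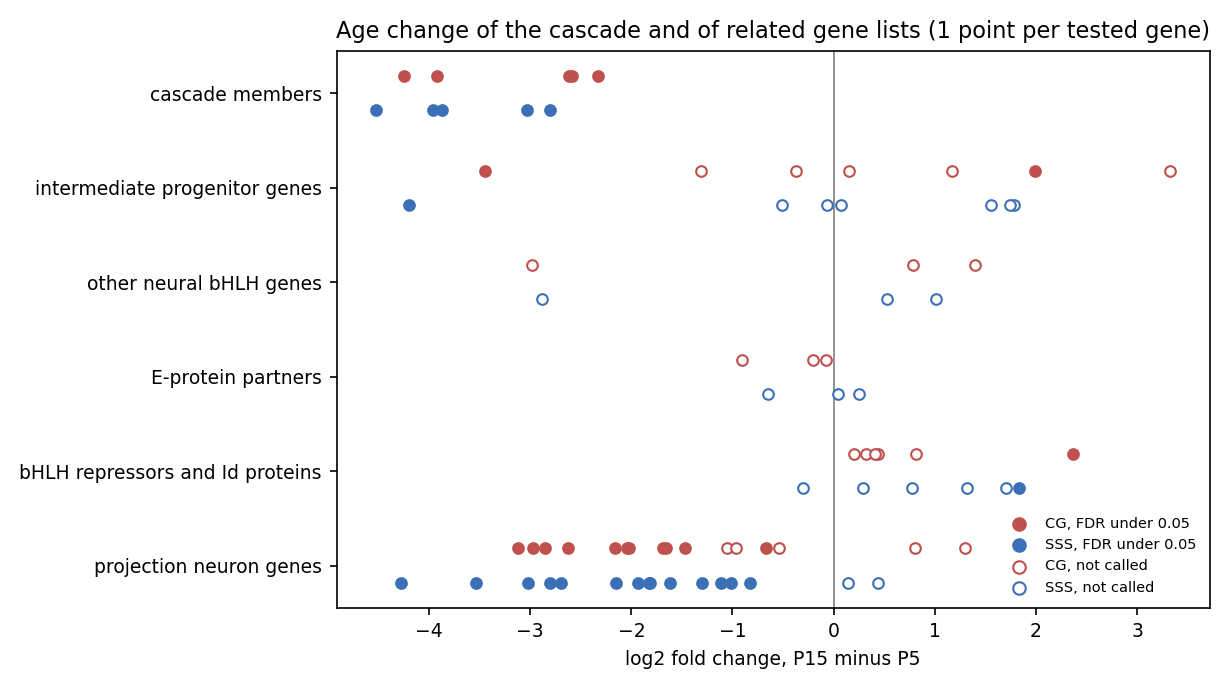
Log2 fold change from P5 to P15 (horizontal axis) of each tested gene in the CG (red) and SSS (blue), by gene list, with filled points for FDR under 0.05 in edgeR. Projection neuron genes fell in 11 of 16 (CG) and 14 of 16 (SSS) cases, while the 3 E-proteins were not called.

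Markers of several cell types in the captured layer differed between ages or regions. The 5 of 5 measured markers of young projection neurons summed to 576 to 1018 CPM in the P5 CG and 594 to 1273 CPM in the P5 SSS, and to 203 to 283 CPM and 234 to 373 CPM at P15. In 5 of 5 animals at each age the CG had the smaller sum. For 7 of 9 radial glia markers the sum was 9183 to 11384 CPM and 6753 to 8343 CPM at P5 and 7305 to 10199 CPM and 6682 to 9145 CPM at P15 (CG and SSS), with the larger sum in the CG in 5 of 5 animals at each age. *FABP7*, a fatty acid binding protein of radial glia, made up most of that gap at P5, with means of 6105 and 4025 CPM, and was the radial glia marker called between regions there (log2 fold change 0.59, SE 0.0816, FDR = 0.00181, edgeR). With age *FABP7* fell in both regions (-1.22 and -0.98 in CG and SSS), whereas *PTPRZ1* (0.85 and 0.93) and *SLC1A3* (0.60 and 0.70) rose.

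The 2 measured of 4 markers of proliferating cells summed to 395 to 847 CPM in the P5 CG and 306 to 804 CPM in the P5 SSS, and to 339 to 562 CPM and 236 to 397 CPM at P15. The CG had the larger sum in 5 of 5 animals at P5 and in 4 of 5 at P15, while neither gene was called, *TOP2A* having 0.45 at P15 (SE 0.124, FDR = 1.00, edgeR). For 4 of 5 intermediate progenitor markers, *EOMES* among them, the sum was 60.0 to 124 CPM and 22.9 to 131 CPM at P5 and 20.7 to 32.7 CPM and 4.08 to 31.1 CPM at P15, larger in the CG in 4 of 5 animals at each age. At P5 that sum was mostly *EOMES*, with a CG mean of 82.1 CPM beside 4.58 for *INSM1*, 2.13 for *PPP1R17* and 0.509 for *PENK*. It is therefore no separate support for *EOMES*. With age *PPP1R17* (log2 fold change 1.17 and 1.78 in CG and SSS) and *PENK* (3.33 and 1.74) ran upward and were not called. At P15 *PPP1R17* had means of 4.86 CPM in the CG and 8.16 CPM in the SSS. The 5 astrocyte markers rose from 83.6 to 205 CPM in the P5 CG and 51.2 to 123 CPM in the P5 SSS to 444 to 747 CPM and 460 to 633 CPM at P15, each of them called in both regions. For 5 of 6 oligodendrocyte lineage markers the sum was 241 to 327 CPM and 182 to 474 CPM at P5 and 815 to 3371 CPM and 926 to 3029 CPM at P15. The 8 interneuron markers summed to 870 to 1202 CPM in the P15 CG and 1103 to 1607 CPM in the P15 SSS, smaller in the CG in 5 of 5 animals, while at P5 the CG had the larger sum in 3 of 5. In group means at P15 *SST* alone differed by more than the sum did, so the direction of that sum rests on *SST*. At P15 *SST* had the widest gap, with means of 421 CPM in the CG and 792 CPM in the SSS (log2 fold change -0.94, SE 0.157, called), and *NPY* ran the other way (264 and 148 CPM, not called). Of 4 microglia markers 3 were called higher at P15 in each region, with sums of 27.2 to 89.2 CPM and 33.5 to 78.5 CPM at P5 and 139 to 297 CPM and 139 to 223 CPM at P15. Beside these counts, 1661 of all 12,669 tested genes were called with age in the CG, 725 of them lower. In the SSS 1856 were called, 819 of them lower. No measured marker of these lists was at 0 in all libraries. The part of cell type shares in the values of the 5 genes was not tested.

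Among tested genes with a symbol, the 5 whose log2 CPM most resembled that of each member over the 20 libraries were found by Pearson correlation. As the libraries share 2 ages and their depth, these values describe the libraries and carry no test. For *NEUROD6* they were *SEMA3C* (r = 0.986), *CD24* (0.981), *ROBO2* (0.976), *DPY19L1* (0.976) and *ROBO1* (0.974), among them a secreted semaphorin and a pair of Robo axon guidance receptors. For *EOMES* they were *DLGAP5* (r = 0.897), *HMGB2* (0.892), *BEND5* (0.885), *HMGA2* (0.878) and *HMGN1* (0.877), which include the spindle protein gene *DLGAP5* and 3 genes of chromatin-bound high mobility group proteins. *TBR1* came nearest to *NEUROD1* (r = 0.934), followed by *AMOTL2* (0.929), *FBXW7* (0.918), *QSER1* (0.915) and *HSDL1* (0.914). For *NEUROG2* they were *COMMD2* (r = 0.898), *GHITM* (0.894), *TRA2A* (0.885), *DPY19L1* (0.884) and *PTX3* (0.878). *NEUROD2* had the weakest, *NPTX2* (r = 0.856), *PUDP* (0.848), *CBFA2T2* (0.828), *SH3BP5* (0.826) and *DUSP1* (0.821). Between the members, r was 0.903 for *NEUROD6* and *NEUROD1*, 0.850 for *NEUROD6* and *NEUROG2* and 0.845 for *NEUROG2* and *EOMES*, and lowest, at 0.425, for *NEUROG2* and *NEUROD2*.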

How the data were processed

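The authors amplified RNA by single primer isothermal amplification (SPIA), trimmed reads with Trimmomatic 0.38, used STAR 2.7.9a for alignment to the ferret assembly MusPutFur1.0, and deposited raw featureCounts counts per gene and library, without normalisation. No source used here gives the strand setting, so antisense overlap was not examined. Symbols are out of register with identifiers in the table, so symbols in file order were given to the identifiers in sorted order. Of 28 ribosomal protein genes, the median of mean levels was then 784 CPM, against 0.939 line by line.

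The deposited counts entered edgeR 4.0.16 under R 4.3.3 (filterByExpr with a minimum count of 10, TMM, older quasi-likelihood fit of 20 libraries, Benjamini-Hochberg FDR). Region was compared with the animal as a block and age without one. The pairing comes from animal names in the library names; residuals of an animal's 2 libraries correlated at 0.046 to 0.246 (median 0.141). SE is the fold change over the root of F. Alternatives used DESeq2 1.42.0, limma 3.58.1, other scaling, filters, blocks and left-out animals. Likeness used log2 CPM with a prior count of 2. Limits from 0 reads cover counting error only, since SPIA reads carry no molecular identifiers. The fits were tested on simulated data.

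Members and lists were chosen with earlier results of these data known. Named from each list were the 2 genes of lowest p in each age comparison and the 1 of lowest p in each region comparison; the age values of *PRDM8*, *DLL3* and *HES1*, and in the other region those of *OLIG2*, *TCF4* and *TCF12*, and the single cell type markers, were added after they were seen.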

Additional observations from a re-analysis of the deposited data

Results flagged for a closer look

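In 20 groups of 5 libraries (5 genes in 4 groups), 2 values lay apart from the rest of their group. Their gap over the range exceeded Dixon's 95% critical value, which chance exceeds in about 1 of 20 groups. Both values came from the P15 SSS library of animal 5, so they are not independent of each other. *EOMES* measured 9.80 CPM there, against 1.36 to 2.73 CPM in the other 4 (gap over range 0.838). *NEUROG2* measured 2.03 CPM there, against 0 to 0.578 CPM (0.715), from 6 reads. Without animal 5 the fitted P15 region difference of *EOMES* was 2.76 on the log2 scale and that of *NEUROG2* 2.697, and their age changes in the SSS were -4.71 and -6.03.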

How the results depend on the processing

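The number of members called at P5 between regions (0), in the age comparison of the SSS (5) and in the change of the region difference with age (0) stayed within 1.5 times in all alternatives run. For the P15 region difference it was 1 and became 0 with limma-voom, with the newer quasi-likelihood, with no replicate block, with only the groups compared and without the P15 SSS library of animal 4, and ran from 0 to 1 when each animal was left out. For age in the CG it was 5 and ran from 3 to 5 without each animal, and a replicate block by number, which joins different animals, gave 3 against 5 in the SSS. At P5 the sign of 2 small differences turned. *NEUROD1* (-0.14) was 0.0647 with limma-voom, 0.0426 with the newer quasi-likelihood and 0.0532 with no replicate block, and -0.35 to 0.0969 without each animal. *NEUROD2* (0.09) was -0.63 with both tools and -0.64 with no replicate block, and -0.47 to 0.53 without each animal. Over all genes, calls ran from 0 to 106 (5 in the reported fit) between regions at P5, 0 to 18 (2) at P15 and 0 to 5 (0) for their difference, and from 1116 to 2210 (1661) and 1260 to 2342 (1856) for age in the CG and SSS. Only the groups compared left *NEUROG2*, *NEUROD1* and *NEUROD2* untested at P15 and *NEUROD2* in the SSS. Depth limits the P15 values, since 3 of the 5 genes had 8 to 36 reads per group.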

Other observations

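*NEUROD4*, a bHLH gene expressed in intermediate progenitors and not on the list of 7, was looked at in single libraries after its values were seen. Its P15 SSS libraries held 0, 0, 0, 0 and 18 reads in animals 1 to 5, so that the only library with reads was again that of animal 5. Its P15 CG libraries held 3, 6, 3, 0 and 12 reads, and animal 5 was the highest there too. At P5 the gene had 88, 24, 53, 26 and 12 reads in the CG and 35, 71, 12, 0 and 20 in the SSS. *INSM1* had 0 reads in the P15 SSS library of animal 5 and 0 to 2 in the other 4, so it did not single out that library. That library also had the fewest tested genes without a read, 49 of 12,669.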
